A study of Mus musculus with 32 samples.

Results

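The 40 genes described here act in S phase, the part of the cell cycle in which DNA is copied. They were taken as a named list of DNA replication and S phase genes, matched by symbol, and are 40 of the 49671 gene identifiers in the count table. Their levels were read from RNA sequencing of primary mouse cortical neuron cultures, prepared from the forebrain of wild-type C57BL/6 embryos at embryonic day 17 to 18 and kept in Neurobasal medium with B27 supplement. The cultures were left untreated or exposed to 1 of 3 synthetic phosphorothioate oligoribonucleotides added to the medium at 10 µg/mL, and RNA was taken after 6 h or 5 d. The first, miR-92a-1-5p, and the second, miR-124-5p, are microRNAs linked to Alzheimer's disease. The last, Mut.oligo, is a control with a mutated sequence of another microRNA, let-7b. Where 3 values are given together, they stand in that order. Each of the 8 groups held 4 libraries, 32 in all, and the 4 libraries of a group carried different experiment labels. Each library came from a whole culture, so a fall in a gene may reflect fewer cells that express it or less RNA per cell, and these cannot be told apart.

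DNA replication begins when the MCM helicase is loaded onto origins and switched on. Polymerases held on DNA by the clamp Pcna then copy both strands, while ribonucleotide reductase supplies the deoxynucleotides and histone chaperones rebuild the chromatin behind the fork. E2F transcription factors drive most of these genes at the start of S phase, and neurons, which have left the cell cycle, normally keep them low, so that in a cortical culture dividing progenitors and glia are the usual source of their mRNA.

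To show the letters that E2F factors are known to bind, 300-base windows around gene starts are printed. They are those of Nasp and of the 5 members that were called at 5 d once experiment batch was accounted for. Among the members with 1 window, Nasp lay nearest to no change at 5 d with miR-92a-1-5p, and its window holds no such letters. They come from the RefSeq promoter table (GRCm38.p6), run 5′ to 3′ on the strand of the gene, and hold 250 bases before and 50 bases after the start. Capitals mark an E2F-type run of letters on either strand. The run searched for was TTTGGCG, with 3 near variants counted as well. One variant was TTTCCCG and another was TTTCGCG, and the last was TTTGCCG.
Pclaf, chr9:65890073-65890372, + strand: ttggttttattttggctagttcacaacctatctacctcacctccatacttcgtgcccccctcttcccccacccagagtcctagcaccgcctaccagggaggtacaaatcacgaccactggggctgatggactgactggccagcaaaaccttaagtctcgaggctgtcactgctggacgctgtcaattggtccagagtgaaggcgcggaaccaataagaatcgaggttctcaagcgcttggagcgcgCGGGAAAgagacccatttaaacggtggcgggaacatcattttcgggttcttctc
Uhrf1, chr17:56304063-56304362, + strand: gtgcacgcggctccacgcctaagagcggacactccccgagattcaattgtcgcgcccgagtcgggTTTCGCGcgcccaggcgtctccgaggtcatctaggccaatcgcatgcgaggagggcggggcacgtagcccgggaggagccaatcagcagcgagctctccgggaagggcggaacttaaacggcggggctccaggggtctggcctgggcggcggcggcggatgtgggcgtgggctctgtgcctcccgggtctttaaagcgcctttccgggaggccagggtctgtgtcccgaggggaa
Mcm5, chr8:75109259-75109558, + strand: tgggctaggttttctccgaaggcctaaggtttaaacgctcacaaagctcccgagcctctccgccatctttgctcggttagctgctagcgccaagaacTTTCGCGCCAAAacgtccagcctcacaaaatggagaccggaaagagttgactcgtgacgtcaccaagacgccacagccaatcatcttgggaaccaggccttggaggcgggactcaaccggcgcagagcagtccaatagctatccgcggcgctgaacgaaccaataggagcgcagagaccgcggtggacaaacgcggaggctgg
Cdc6, chr11:98907901-98908200, + strand: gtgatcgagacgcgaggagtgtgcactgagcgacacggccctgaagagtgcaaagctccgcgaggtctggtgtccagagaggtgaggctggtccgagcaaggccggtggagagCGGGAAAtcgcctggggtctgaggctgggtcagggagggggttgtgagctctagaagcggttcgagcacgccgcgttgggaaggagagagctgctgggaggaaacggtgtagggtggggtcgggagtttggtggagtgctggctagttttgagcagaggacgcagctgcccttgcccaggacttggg
Dtl, chr1:191575495-191575794, - strand: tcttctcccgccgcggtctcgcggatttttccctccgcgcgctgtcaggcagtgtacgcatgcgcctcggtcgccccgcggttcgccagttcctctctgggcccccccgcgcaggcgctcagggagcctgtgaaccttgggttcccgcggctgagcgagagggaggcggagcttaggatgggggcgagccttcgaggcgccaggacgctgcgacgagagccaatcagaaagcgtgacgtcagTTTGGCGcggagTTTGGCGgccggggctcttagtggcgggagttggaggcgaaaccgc
Nasp, chr4:116627902-116628201, - strand: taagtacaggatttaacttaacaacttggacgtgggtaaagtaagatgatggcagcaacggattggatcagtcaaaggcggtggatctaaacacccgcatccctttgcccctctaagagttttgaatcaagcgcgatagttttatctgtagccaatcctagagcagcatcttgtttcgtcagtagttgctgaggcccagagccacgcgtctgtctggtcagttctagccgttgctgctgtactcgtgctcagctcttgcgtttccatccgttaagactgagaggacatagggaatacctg
The capitals of Mcm5 are 2 overlapping matches, 1 on each strand, whose first bases lie 153 and 148 bases before the start. In Pclaf the match began 4 bases before the start, in Cdc6 137 bases and in Uhrf1 185 bases before it, and in Dtl 2 matches flanked the start. Uhrf1 has 2 windows in the table, of which the printed one holds a match. Of the 30 members with a window, 14 held a match in at least 1 window (46.7%), against 7.65% of all 27025 genes with a window. Counted by window, 14 of the 34 windows of members held one, against 6.7% of all 32851 promoter windows. The letters CCAAT stood in 20 of the 30 members (66.7%), against 41.1% of all genes and 37.4% of all windows. TTTGAA, or its variant form TTCGAA, both known from genes of the G2 and M phases, stood in 7 of the 30 (23.3%), against 21.7% of all genes and 19.2% of all windows. The windows of Dscc1, Gins2, Mcm4, Ccne2, Tipin, Exo1, Atad2, Usp1, Rfc2 and Gmnn were not looked at. A match is a run of letters and not a measured binding site. Pold3 holds a match and differed by 0.02 with miR-92a-1-5p at 5 d, while E2f8 holds none and differed by -0.98.

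The mature miR-92a-1-5p, matched in the RefSeq miRNA table (GRCm38.p6), is shown with its seed, bases 2 to 8, in capitals. Sites for the seed were not searched for in the members.
miR-92a-1-5p, chr14:115044437-115044459, + strand: aGGUUGGGauuugucgcaaugcu

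Levels are given as CPM, the usual read count scaled for sequencing depth, after TMM scaling (edgeR's correction for library composition), and between genes as RPKM, CPM per kilobase of exon. The libraries held 24514090 to 73626029 counted reads, and all 40 members passed the filter on low counts at both times. Replicate libraries of a group differed by more than counting noise in all 48 pairs. Neuron markers (Map2, Tubb3, Stmn2 and 5 others) were abundant, with a summed level of 5511 to 8038 CPM in untreated cultures at 5 d. The markers of dividing progenitors, of astrocytes and radial glia, and of the oligodendrocyte lineage were present too. In untreated cultures they summed to 200, 1181 and 225 CPM at 6 h and to 169, 3278 and 189 CPM at 5 d. A gene counted as called in edgeR's quasi-likelihood test if its p, adjusted after Benjamini and Hochberg, lay under 0.05 and its log2 fold change, up or down, exceeded 0.5.

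In untreated cultures at 6 h the 40 members together held 979 ± 132 CPM (SD, n = 4; range 874 to 1172). Per length of exon, the highest was Pcna, the sliding clamp, at 32.1 RPKM. Next stood Rrm2, the small subunit of ribonucleotide reductase, at 19.95 RPKM and Nasp, a histone chaperone, at 18.8 RPKM. Mcm7, a helicase subunit, led its role at 11.96 RPKM, Usp1, a deubiquitinase of repair, led its own at 9.36 RPKM, and Ccne1, cyclin E1, was the highest of the cell cycle regulators. At the low end stood Dscc1, a clamp loader subunit, at 0.395 RPKM and Fen1, the flap endonuclease, at 0.284 RPKM. Exons of the opposite strand cover 84.2% of the exon bases of Fen1, so its place in this order is less certain.

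By 5 d most members had fallen in every condition. Their summed level in untreated cultures was 595 ± 27.1 CPM (SD, n = 4; range 579 to 635), 60.7% of that at 6 h, and the 6 h and 5 d libraries did not overlap. Of the 40 members, 32 fell and 1 rose in untreated cultures, and the counts were 32 and 1 again with each oligoribonucleotide. Of all 20425 genes tested, 14.3% fell and 19.1% rose in untreated cultures. The shares were 15.7% and 18.3% with miR-92a-1-5p, 14.7% and 19.5% with miR-124-5p, and 15.4% and 18.7% with Mut.oligo. The median log2 change of the members was -0.90 in untreated cultures, -1.14 with miR-92a-1-5p, -0.93 with miR-124-5p and -1.04 with Mut.oligo, beside 0.04, -0.01, 0.02 and 0.01 for all genes. No experiment batch was shared by the time points, so time and batch cannot be told apart.

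The fall ran through every role. All 10 helicase genes fell, and their summed level at 5 d was 52.2% of that at 6 h. The 3 nucleotide supply genes fell to 48.1%, 4 of 5 repair genes fell (70.2%), 6 of 8 chromatin genes fell (64.4%), and 3 of 4 cell cycle regulators fell (54.9%). Of the 10 polymerase, clamp and fork genes 6 fell and Fen1 rose (70.5%). 

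Pclaf, a small protein that binds Pcna at the fork, fell most. Its untreated levels were 18.8, 33.2, 16.6 and 23.1 CPM at 6 h and 7.16, 6.66, 8.02 and 6.52 CPM at 5 d, with no overlap between the times (log2 change -1.72, SE 0.262, edgeR quasi-likelihood adjusted p = 2.11e-06). Chaf1b, a subunit of the chromatin assembly factor that loads histones on new DNA, fell by 1.61 on the log2 scale. Uhrf1, which passes DNA methylation on to the new strand, fell by 1.58 from 20.03 to 39.6 CPM at 6 h to 8.48 to 9.63 CPM. Cdca7, a partner of the chromatin remodeller Hells, fell by 1.57 on the log2 scale, and E2f8, a repressor of E2F target genes, fell by 1.53.

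Mcm5, a helicase subunit, fell by 1.52 on the log2 scale, Gmnn, the inhibitor of helicase loading, by 1.49, Clspn, the checkpoint adaptor Claspin, by 1.46, and Dscc1 by 1.42. At the other end was Slbp, which binds the stem-loop of histone mRNAs, with a log2 change of -0.01 (edgeR adjusted p = 0.945). The 7 members not called in untreated cultures were Rfc2, Pold3, Tipin, Usp1, Nasp, Slbp and Ccne1, and their changes ran from -0.48 to -0.01.

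Fen1 went the other way. Its untreated levels were 0.669, 0.694, 0.604 and 0.788 CPM at 6 h and 9.47, 9.75, 9.34 and 8.94 CPM at 5 d (log2 change +3.73, SE 0.154, edgeR quasi-likelihood adjusted p = 1.93e-18). In counts, the 16 libraries at 6 h held 12 to 51 reads of Fen1 and the 16 libraries at 5 d held 335 to 626. Exons of genes on the opposite strand, Gm10143 and Tmem258, cover 84.2% of the exon bases of Fen1.

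Genes covered in this way differed between the time points as a group. There were 12 genes with 2 reads or fewer in every 6 h library and 50 or more in every 5 d library. Opposite-strand exons covered a median of 81.1% of their exon bases. Another 14 genes went the other way, with 50 reads or more in every 6 h library and 2 or fewer in every 5 d library. The median cover of the 13 annotated among them was 0%, so differences of this size were not confined to covered genes. The genes of both kinds included 0 members. Across the 20357 annotated genes of the fit 395 were covered over more than 50% of their exon bases, and their median log2 change in untreated cultures was 1.63, with 237 called higher and 51 lower. The sources name a single strand setting for all libraries, and its part in the rise of Fen1 was not tested. Cover was above 10% for 5 members, Fen1, Gins2 (67.3%), Ccne2 (17.4%), Rfc2 (15.1%) and E2f8 (11.2%). With these left out, 29 of the remaining members fell and none rose in each condition, in a count chosen after the data were seen. Comparisons within a time point do not span this difference.

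**Figure D1:**
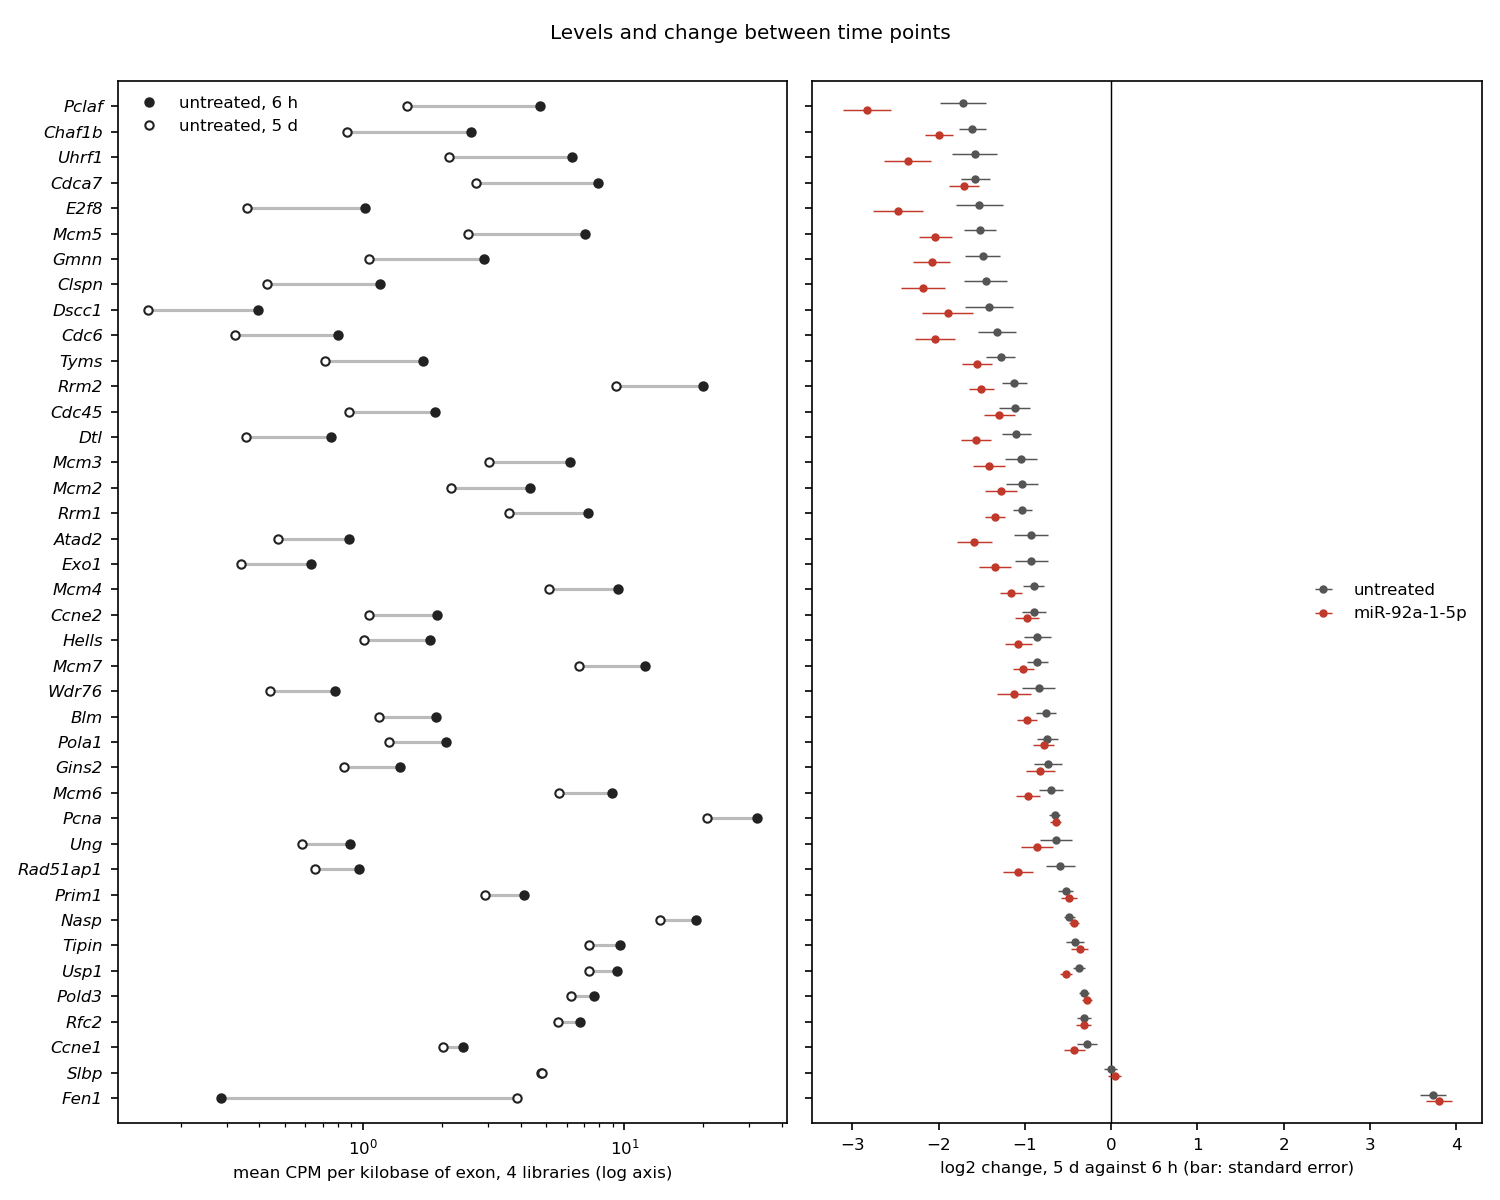
Left, mean level of each member in untreated cultures at 6 h (filled) and 5 d (open), as CPM per kilobase of exon on a log axis, 4 libraries each. Right, log2 change from 6 h to 5 d with its standard error in untreated and miR-92a-1-5p cultures. Pclaf has the most negative untreated change (-1.72), Slbp lies at -0.01 and Fen1 at +3.73.

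At 6 h no member was called with any oligoribonucleotide. The summed level was 940 ± 107 CPM with miR-92a-1-5p, 861 ± 82.3 CPM with miR-124-5p and 918 ± 117 CPM with Mut.oligo (SD, n = 4 each), all overlapping the untreated libraries. With edgeR 0 of 40 members were called in each comparison, beside 0%, 0% and 0% of the 18755 genes tested, and DESeq2 called 0 members too, beside 0%, 0% and 0.0533%. When the experiment batch entered the fit, the count stayed at 0 for each, beside 0.208% of all genes with miR-92a-1-5p, 0% with miR-124-5p and 0.0213% with Mut.oligo in edgeR, and 0.139%, 0.00533% and 0.0427% in DESeq2.

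The median log2 difference of the members at 6 h was -0.06 with miR-92a-1-5p, -0.19 with miR-124-5p and -0.10 with Mut.oligo. Lower at an unadjusted p under 0.05 were 0, 4 and 2 members, beside 2.27%, 1.39% and 4.17% of all genes. The 4 with miR-124-5p were Usp1 (-0.17), Dtl (-0.47), Gmnn (-0.51) and Hells (-0.35), and the 2 with Mut.oligo were Slbp (-0.13) and Usp1 (-0.15). When 1 library was left out these counts were 0 to 2, 0 to 9 and 0 to 3. The medians then ran from -0.18 to 0.07 with miR-92a-1-5p, from -0.25 to -0.09 with miR-124-5p and from -0.19 to 0.02 with Mut.oligo. Without untreated replicate 2 the first and the last turned positive, and the count with miR-124-5p was 0, while it was 9 without untreated replicate 3. Within experiment batches, 10 members were lower in all 4 batches that held untreated and miR-92a-1-5p libraries (9.81% of all genes were). With miR-124-5p 20 members were lower in both shared batches (25.5%), and with Mut.oligo 21 (27.8%).

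At 5 d 38, 31 and 38 of the 40 members stood lower with the oligoribonucleotides than in untreated cultures, but 0 of 40 were called in each comparison without a covariate (beside 0.00517%, 0% and 0% of 19333 genes). DESeq2 without a covariate called 3 members with miR-92a-1-5p, Pclaf, Atad2 and Dtl, beside 0.15% of all genes, and 0 with the others, beside 0% with miR-124-5p and 0.0155% with Mut.oligo. The summed level of the 40 members was 510 ± 26.9 CPM with miR-92a-1-5p (range 489 to 547), 538 ± 56.8 CPM with miR-124-5p (505 to 623) and 534 ± 16.1 CPM with Mut.oligo (516 to 554), or 85.7%, 90.5% and 89.8% of the untreated level. Every miR-92a-1-5p and Mut.oligo library lay below every untreated library, while 1 miR-124-5p library, replicate 1 at 623 CPM, lay among them.

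**Figure D2:**
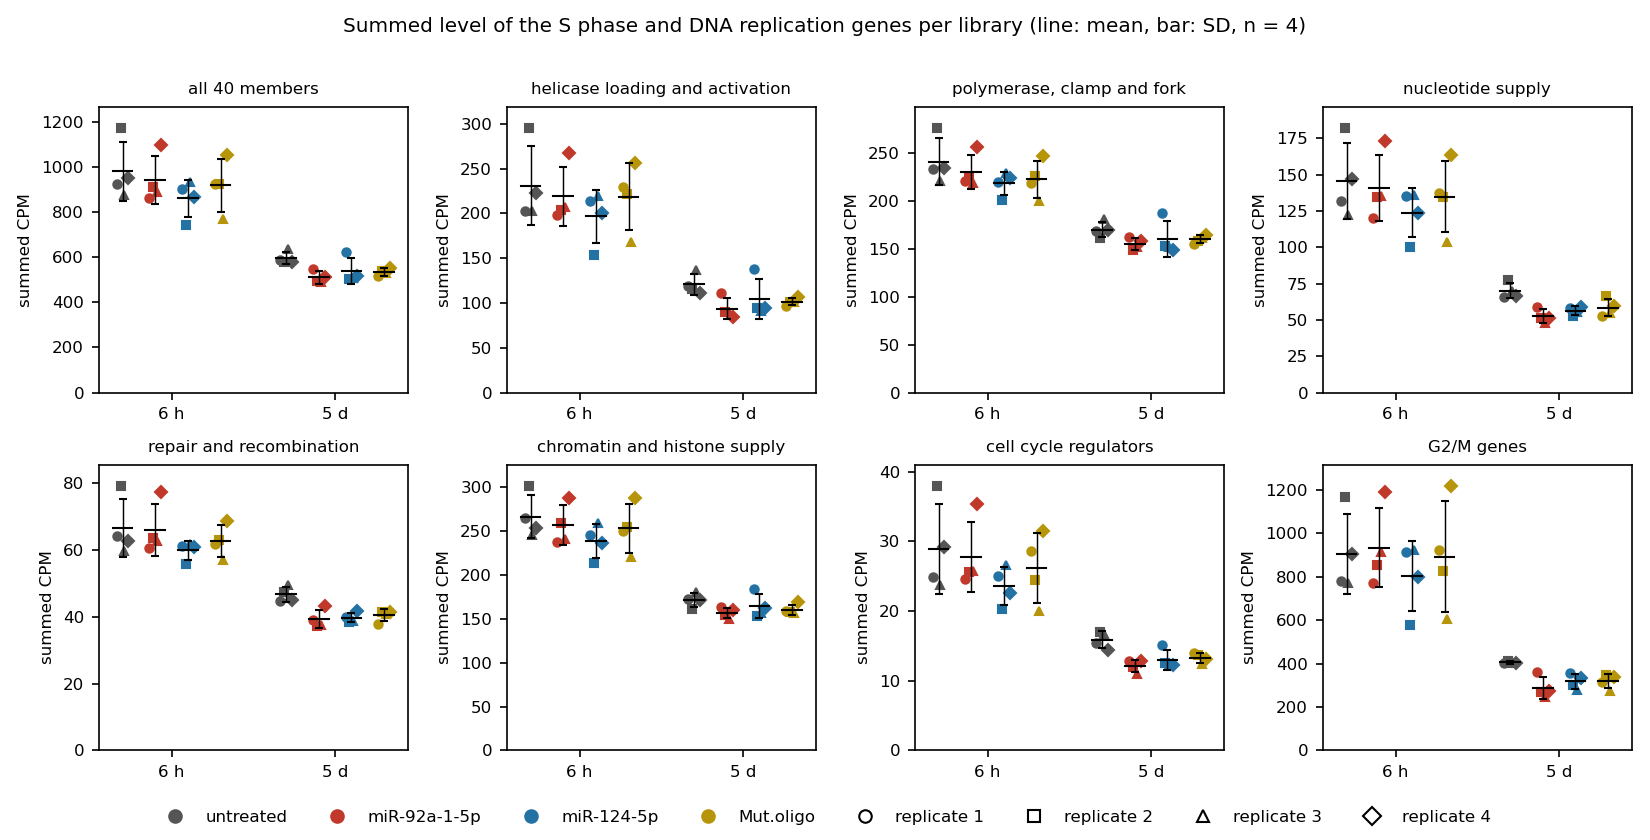
Summed level in CPM of all 40 members, of the members by role and of 42 G2/M genes, in each of 32 libraries (points, shape by replicate number) with the group mean and SD (n = 4). At 5 d untreated libraries sit between 579 and 635 CPM for all members and miR-92a-1-5p libraries between 489 and 547 CPM.

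Lower at an unadjusted p under 0.05 were 23 members with miR-92a-1-5p, 14 with miR-124-5p and 15 with Mut.oligo, and none was higher. Among all genes 2.62%, 1.52% and 1.98% were lower at that level. The medians of the members were -0.32, -0.21 and -0.23 on the log2 scale, beside 0.00 for all genes in each comparison. Every library lay below every untreated library for 18, 8 and 13 members, against 2.17%, 1.34% and 1.34% of all genes. All 3 comparisons used the same 4 untreated libraries. The member count with miR-124-5p was 6 to 21 when 1 library was left out, 21 without miR-124-5p replicate 1, and 7, 6, 8 and 9 without untreated replicate 3, miR-124-5p replicate 2, 3 and 4. With Mut.oligo it was 8 without untreated replicate 3 and 9 without Mut.oligo replicate 3.

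By role, the summed levels with miR-92a-1-5p were lower by uneven shares. Abundant members weigh most in a sum, so these shares do not rank the roles by how far their members changed. In untreated cultures at 5 d Nasp held a mean of 102.96 CPM of the 171.72 CPM of the chromatin genes. Pcna held a mean of 49.88 CPM of the 169.77 CPM of the polymerase, clamp and fork genes. The summed level of the nucleotide supply genes was 74.9% of untreated, of the cell cycle regulators 76.5%, of the helicase genes 77.7%, of the repair genes 84.2%, and of the chromatin and the polymerase, clamp and fork genes 91.3% and 91.4%. The median log2 difference was -0.45 for the 14 members with an E2F-type match in the window (range -1.20 to 0.02). For the 16 members without a match it was -0.29 (range -0.98 to 0.02). These medians were -0.27 and -0.13 with miR-124-5p, and -0.31 and -0.15 with Mut.oligo. From 6 h to 5 d in untreated cultures they were -1.07 and -0.80. Whether a match bears on these changes was not tested.

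Among the helicase genes, Cdc6, which loads the MCM ring, stood at 1.68, 1.78, 1.78 and 1.51 CPM in untreated cultures at 5 d and at 1.36, 0.812, 0.905 and 0.793 CPM with miR-92a-1-5p. It stood at 1.77, 1.06, 0.747 and 0.976 CPM with miR-124-5p and at 0.926, 0.905, 0.909 and 0.787 CPM with Mut.oligo. The miR-92a-1-5p and Mut.oligo libraries did not overlap the untreated ones, and miR-124-5p replicate 1 did. The log2 differences were -0.79, -0.54 and -0.94.

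Mcm5 stood at 8.59, 11.1, 10.8 and 9.51 CPM untreated, at 8.13, 5.81, 5.66 and 5.71 CPM with miR-92a-1-5p, at 11.6, 6.83, 6.26 and 6.501 CPM with miR-124-5p and at 6.62, 8.06, 7.56 and 8.96 CPM with Mut.oligo. With miR-92a-1-5p all 4 libraries lay below the untreated ones, replicate 1 closest to them, and both other groups overlapped (log2 differences -0.64, -0.34 and -0.36). Gmnn differed by -0.78, -0.24 and -0.36. Of the other MCM subunits Mcm3 differed by -0.54 with miR-92a-1-5p, Mcm2 by -0.39, Mcm4 by -0.35 and Mcm6 by -0.32, each with an unadjusted p under 0.05 and none called. Mcm7 differed by -0.16.

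Of the genes of the fork, Pclaf had the largest difference of any member with miR-92a-1-5p. Against the untreated 7.16, 6.66, 8.02 and 6.52 CPM it stood at 4.94, 3.02, 1.87 and 2.42 CPM with miR-92a-1-5p, at 5.24, 3.40, 2.73 and 3.06 CPM with miR-124-5p, and at 3.66, 4.61, 3.56 and 3.77 CPM with Mut.oligo. All 12 treated libraries lay below all 4 untreated ones. The log2 difference was -1.20 with miR-92a-1-5p (SE 0.240, edgeR quasi-likelihood adjusted p = 0.363), -0.95 with miR-124-5p and -0.86 with Mut.oligo. Clspn differed by -0.75 with miR-92a-1-5p, and Dscc1 by -0.74 at levels under 1 CPM. Near 0 were Tipin, a fork protection protein (0.00), Prim1, the primase that starts each fragment (0.02), and Pold3, a subunit of polymerase delta (0.02).

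In nucleotide supply, Rrm2 stood at 24.5, 29.9, 24.2 and 24.7 CPM untreated and at 19.999, 18.9, 16.6 and 18.7 CPM with miR-92a-1-5p, without overlap (log2 difference -0.46). With miR-124-5p it differed by -0.43 and with Mut.oligo by -0.24. Rrm1, the large subunit of the same enzyme, differed by -0.37, -0.21 and -0.27.

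In repair, Exo1, an exonuclease, differed by -0.48 with miR-92a-1-5p, Rad51ap1, a recombination factor, by -0.45, and Usp1 by -0.20. For Rad51ap1 the differences with the other oligoribonucleotides lay near 0, at 0.04 with miR-124-5p and -0.06 with Mut.oligo, and their signs turned when some single libraries were left out.

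Of the chromatin genes, Uhrf1 stood at 8.89, 9.63, 9.38 and 8.48 CPM untreated and at 7.37, 4.93, 3.39 and 3.65 CPM with miR-92a-1-5p. With miR-124-5p it stood at 9.002, 5.31, 4.11 and 6.21 CPM and with Mut.oligo at 5.18, 6.62, 5.18 and 6.85 CPM. Only the miR-124-5p libraries overlapped the untreated ones, through replicate 1, and the differences were -0.89, -0.54 and -0.61 on the log2 scale. Atad2, a chromatin factor with an ATPase domain, differed by -0.67, -0.51 and -0.50, and Hells by -0.36, -0.26 and -0.28. Nasp, with 105, 95.9, 103 and 107 CPM untreated and 100, 98.7, 97.99 and 106 CPM with miR-92a-1-5p, overlapped throughout (log2 difference -0.01).

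Of the cell cycle regulators, E2f8 differed by -0.98 with miR-92a-1-5p, -0.99 with miR-124-5p and -0.61 with Mut.oligo. Dtl, the adaptor that sends licensing factors for destruction in S phase, stood at 4.85, 5.09, 5.38 and 4.23 CPM untreated and at 3.61, 3.04, 2.82 and 3.17 CPM with miR-92a-1-5p, without overlap (log2 difference -0.61). With miR-124-5p it stood at 4.68, 3.30, 3.04 and 3.86 CPM and with Mut.oligo at 3.94, 4.05, 3.51 and 4.22 CPM. Ccne2, cyclin E2, differed by -0.02 with miR-92a-1-5p. The 14 members not described so far ran from -0.34 for Chaf1b to -0.05 for Slbp with miR-92a-1-5p at 5 d. Pcna, the most abundant per length, differed by -0.13, -0.11 and -0.09, and Tyms, thymidylate synthase, by -0.29, -0.21 and -0.25.

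**Figure D3:**
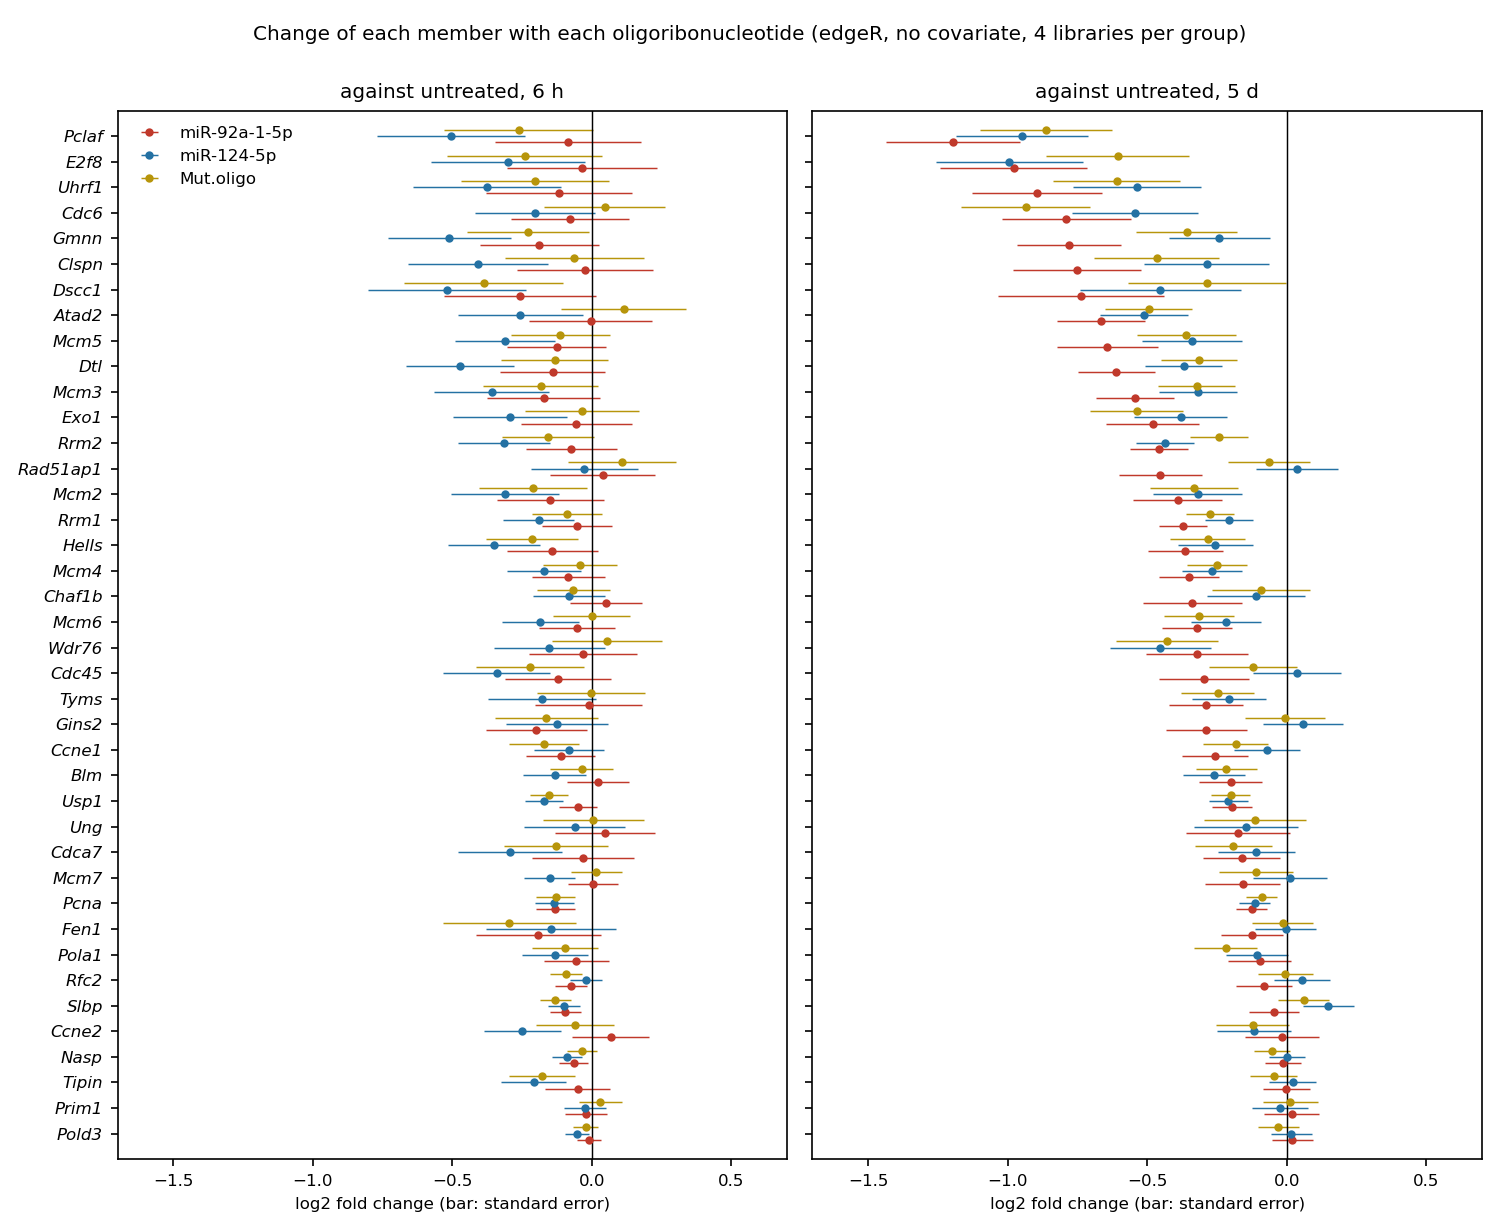
Log2 fold change of each of the 40 members against untreated cultures at 6 h (left) and 5 d (right), with its standard error, for the 3 oligoribonucleotides (edgeR, no covariate, 4 libraries per group), members ordered by the 5 d value with miR-92a-1-5p. At 5 d Pclaf lies lowest with miR-92a-1-5p (-1.20) and Pold3, at 0.02, at the other end, while at 6 h no member was called.

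When the experiment batch entered the fit as a covariate at 5 d, 5 members fell with miR-92a-1-5p, 1 with miR-124-5p and 1 with Mut.oligo, beside 0.352%, 0.0259% and 0.0466% of all genes called. In this fit untreated replicate 3, alone in its batch, carried no weight in these comparisons. Lower at an unadjusted p under 0.05 were 26, 17 and 16 members, beside 6.23%, 3.29% and 2.82% of all genes.

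Pclaf fell with all 3, by 1.31 on the log2 scale with miR-92a-1-5p (SE 0.121, edgeR adjusted p = 0.000636), by 1.04 with miR-124-5p (SE 0.118, edgeR adjusted p = 0.00673) and by 0.72 with Mut.oligo (SE 0.106, edgeR adjusted p = 0.0315). The other 4 that fell with miR-92a-1-5p were Uhrf1 by 0.99 (SE 0.131, edgeR adjusted p = 0.00525), Mcm5 by 0.71 (SE 0.107, edgeR adjusted p = 0.0107), Cdc6 by 0.95 (SE 0.167, edgeR adjusted p = 0.0285) and Dtl by 0.57 (SE 0.107, edgeR adjusted p = 0.0386). Next was Clspn, whose difference of -0.83 missed the threshold (edgeR adjusted p = 0.0629). DESeq2 with the batch called Clspn as well, 6 members with miR-92a-1-5p, beside 0.61% of all genes. It called Pclaf and Uhrf1 with miR-124-5p (0.0879% of all genes), and Cdc6 and Pclaf with Mut.oligo (0.0879%).

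Batch by batch, 2 batches held both an untreated and a miR-92a-1-5p library at 5 d, and the log2 differences of Pclaf within them were -1.23 and -1.41. They were -0.84 and -1.21 for Uhrf1, -1.01 and -0.89 for Cdc6, -0.56 and -0.73 for Mcm5, and -0.67 and -0.41 for Dtl. With Mut.oligo Pclaf differed by -0.96, -0.53 and -0.78 in its 3 batches. Lower in every shared batch were 32 of 40 members with miR-92a-1-5p (2 batches; 33% of all genes), 34 with miR-124-5p (2 batches; 36.5%) and 23 with Mut.oligo (3 batches; 14.4%).

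Replicate 1 of miR-92a-1-5p and replicate 1 of miR-124-5p came from the same batch, which held no untreated library. For Pclaf, Uhrf1, Mcm5, Cdc6 and Dtl, they were the highest library of their group.

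**Figure D4:**
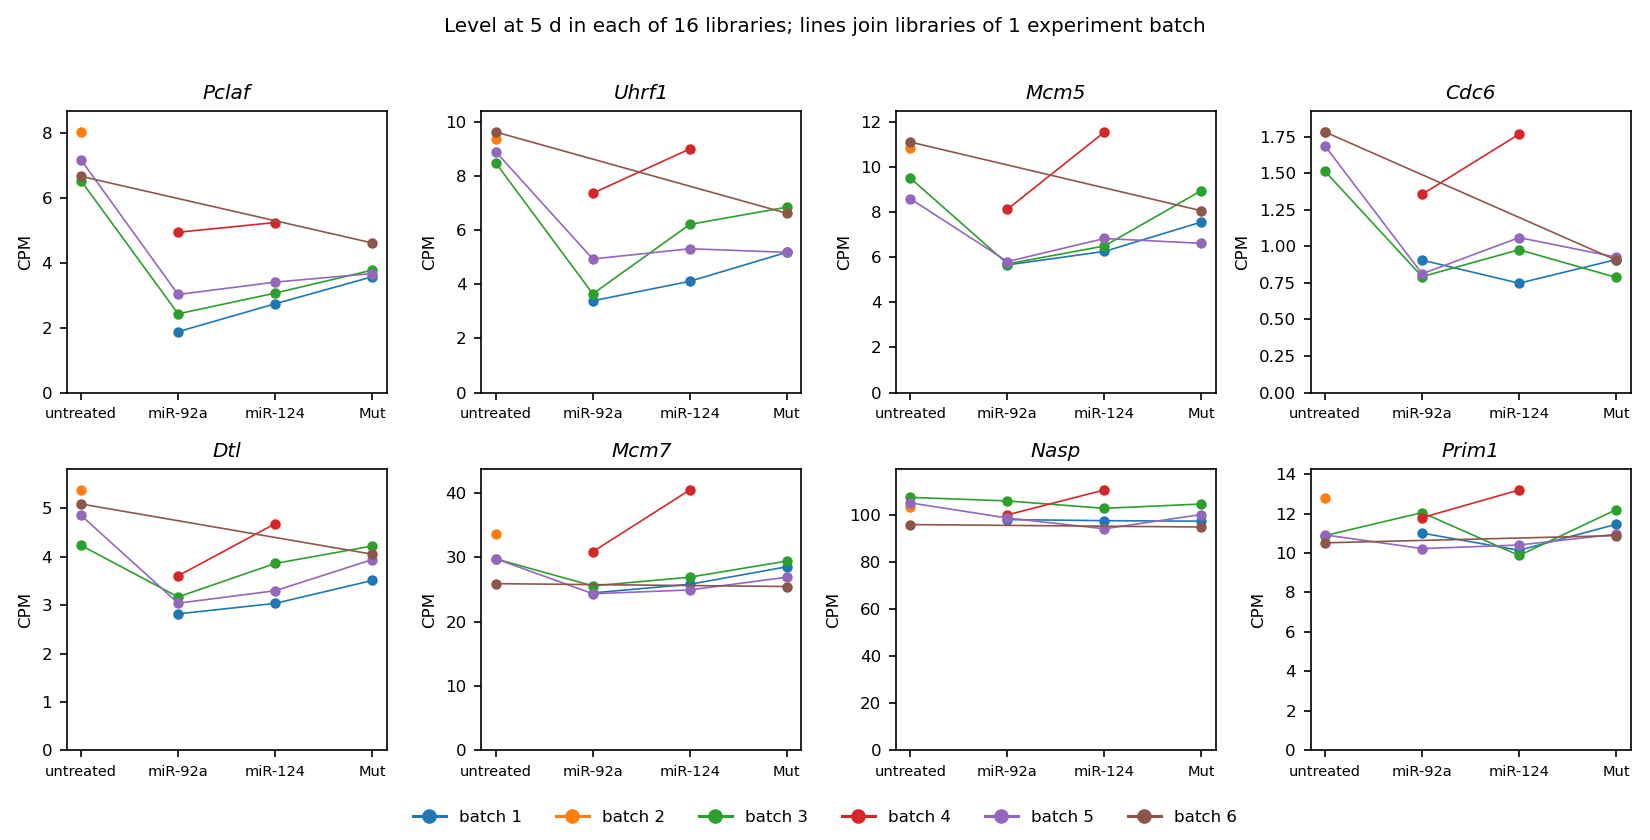
Level in CPM at 5 d of 8 members in each of 16 libraries, with lines joining libraries of the same experiment batch (batches numbered in no meaningful order). Pclaf lies lower with miR-92a-1-5p than untreated in both batches that hold both, and Nasp is level at 94.1 to 111 CPM.

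Between the oligoribonucleotides at 5 d, 0 members were called for any pair without a covariate, in edgeR or DESeq2 (beside 0% of all genes for each pair in both) and 0 with the batch in edgeR (0.0103% for miR-92a-1-5p against Mut.oligo, 0.0103% against miR-124-5p and 0% for miR-124-5p against Mut.oligo). DESeq2 with the batch called 1, Pclaf, lower with miR-92a-1-5p than with Mut.oligo (log2 difference -0.58, adjusted p = 0.0270), beside 0.0672% of all genes. For the other pairs it called 0 members, beside 0.0517% of all genes for miR-92a-1-5p against miR-124-5p and 0% for miR-124-5p against Mut.oligo. With miR-92a-1-5p 28 members were lower than with Mut.oligo, with a median of -0.08, and 32 lower than with miR-124-5p, with a median of -0.11. When 1 library was left out, the first median ran from -0.14, without miR-92a-1-5p replicate 1, to -0.07. The median against miR-124-5p was -0.21 without miR-92a-1-5p replicate 1 and -0.01 without miR-124-5p replicate 1. At an unadjusted p under 0.05 3 were lower than with Mut.oligo (1.16% of all genes), Rad51ap1 (-0.39), Gmnn (-0.42) and Dtl (-0.30). Against miR-124-5p 4 were (1.52%), Rad51ap1 (-0.49), Gmnn (-0.54), Gins2 (-0.35) and Slbp (-0.20). With the batch these counts were 16 (4.85%) and 13 (4.01%).

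In all 3 shared batches 23 members were lower with miR-92a-1-5p than with Mut.oligo (16.8% of all genes), and in all 4 shared batches 11 were lower than with miR-124-5p (5.81%). Pclaf was lower in each of these, with log2 differences of -0.28, -0.91 and -0.63 against Mut.oligo and of -0.08, -0.17, -0.53 and -0.33 against miR-124-5p. The count against Mut.oligo at an unadjusted p under 0.05 was 10 without miR-92a-1-5p replicate 1 and 0 without miR-92a-1-5p replicate 3 or Mut.oligo replicate 2, and 1 to 3 with each other library left out. Against miR-124-5p it was 11 without miR-92a-1-5p replicate 1, 1 without miR-124-5p replicate 1 and 2 to 7 otherwise. Between miR-124-5p and Mut.oligo the median was 0.03, and -0.06 without miR-124-5p replicate 1. For this pair 0 members were lower at an unadjusted p under 0.05 (0.657%), and 12 were lower in all 3 shared batches (19.5%).

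The test of the difference itself, the effect at 5 d minus the effect at 6 h, called 0 members for each oligoribonucleotide without a covariate in edgeR (0%, 0% and 0% of 20425 genes) and in DESeq2 (0%, 0% and 0%). Lower at an unadjusted p under 0.05 were 6 members with miR-92a-1-5p (2.79% of all genes), Pclaf (-1.11), E2f8 (-0.94), Atad2 (-0.66), Cdc6 (-0.71), Uhrf1 (-0.78) and Clspn (-0.73). With miR-124-5p 0 were (1.44% of all genes) and with Mut.oligo 2 were (2.42%). With the batch 1 member was called for miR-92a-1-5p, Pclaf (log2 difference of effects -1.22, SE 0.249, edgeR adjusted p = 0.0470), beside 0.137% of all genes, and 0 for miR-124-5p (0.0049%) and Mut.oligo (0.00979%). DESeq2 with the batch called Pclaf and Uhrf1 for miR-92a-1-5p, beside 0.465% of all genes, and 0 members for miR-124-5p (0.0049%) and Mut.oligo (0.0294%). The count of 6 was 18 without untreated 6 h replicate 2 and 1 without untreated 6 h replicate 3 or miR-92a-1-5p 6 h replicate 4, and 2 to 11 with each other library left out. For miR-124-5p it was 0 to 1. The count of 2 for Mut.oligo was 6 without untreated 6 h replicate 2, 5 without Mut.oligo 6 h replicate 3 and 1 to 3 otherwise, and its median, -0.10, ran from -0.23 to 0.00.

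Other genes of the cell cycle were looked at beside the members. Of 45 other replication genes 26 fell and none rose from 6 h to 5 d in untreated cultures, beside 14.3% and 19.1% of all genes. With miR-92a-1-5p at 5 d 34 of the 45 were lower, with a median of -0.10. None was called with or without the batch, beside 0.352% and 0.00517% of all genes. The smallest unadjusted p values were those of Timeless (-0.37), Dbf4 (-0.39), Lig1 (-0.30) and Pole (-0.36). Of 42 G2/M genes, which act in mitosis, 41 fell from 6 h to 5 d in untreated cultures (14.3% of all genes did).

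With miR-92a-1-5p at 5 d all 42 G2/M genes were lower. Their median was -0.64, beside -0.32 for the members. Of the 42, 38 were lower at an unadjusted p under 0.05, beside 2.62% of all genes. None was called without a covariate (beside 0.00517% of all genes). With the batch 14 fell, among them Dlgap5 (-1.20), Ect2 (-0.77), Tpx2 (-0.52) and Top2a (-0.93), beside 0.352% of all genes called. Their summed level was 71% of untreated with miR-92a-1-5p, 78.4% with miR-124-5p and 78.8% with Mut.oligo. With the batch 0 were called with miR-124-5p (beside 0.0259% of all genes) and 2 with Mut.oligo (0.0466%). Of 19 G1 and E2F genes 1 fell with miR-92a-1-5p without a covariate, beside 0.00517% of all genes called. This was Ccnd1, cyclin D1, by 0.65 on the log2 scale (SE 0.0939, edgeR adjusted p = 0.0483). With the batch 4 fell, Ccnd1, Cdk6, Cdkn2c and Ccna2, beside 0.352% of all genes called.

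Several lists of markers of other cells were lower at 5 d beside the members. The summed level of 8 oligodendrocyte lineage markers was 189 CPM in untreated cultures at 5 d (range 170 to 206), and 117 CPM with miR-92a-1-5p (88.5 to 164), 142 CPM with miR-124-5p (114 to 184) and 135 CPM with Mut.oligo (127 to 145). With miR-92a-1-5p 7 of the 8 were lower, 0 were called without a covariate and 4 fell with the batch, Olig2, Olig1, Pdgfra and Sox10. For this and each marker list below, the shares of all genes called were 0.00517% without and 0.352% with the batch. All 7 progenitor markers were lower, and Nes, an intermediate filament of progenitors, fell with the batch. The summed level of the 7 was 169 CPM untreated (146 to 194) and 130 CPM (108 to 163). The 8 astrocyte and radial glia markers summed to 3278 CPM untreated (2656 to 3821) and 2861 CPM (2321 to 3413), with none called. As shares of the untreated sum, the progenitor markers stood at 77.2%, 84.5% and 80% with the 3 oligoribonucleotides in their order, the astrocyte and radial glia markers at 87.3%, 89.5% and 84.1%, and the oligodendrocyte lineage markers at 61.6%, 75% and 71%.

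The 8 neuron markers summed to 6785 CPM untreated and 6938 CPM with miR-92a-1-5p (6219 to 7404), with a median log2 difference of 0.06 and none called. They summed to 6857 CPM with miR-124-5p (5587 to 7777) and 7298 CPM with Mut.oligo (6545 to 8321). The 6 endothelial markers summed to 7.85 CPM untreated (5.98 to 11.2) and 4.21 CPM (3.40 to 4.83), and 1 of them, Kdr, fell with the batch. Cldn5 and Tek lay at 0 to 0.134 CPM and 0 to 0.226 CPM at 5 d. The 9 mural and fibroblast markers summed to 102 CPM untreated (82.0 to 143) and 75.3 CPM (54.8 to 88.4), and Acta2 and Tagln fell with the batch. The 8 microglia markers summed to 33.6 CPM and 32.5 CPM, with none called. In the same order the shares were 53.7%, 69.6% and 57.6% for the endothelial markers, 74.1%, 84% and 86% for the mural and fibroblast markers, and 96.8%, 98.5% and 90.3% for the microglia markers. From 6 h to 5 d in untreated cultures the astrocyte and radial glia sum went from 1181 to 3278 CPM. Of the 8 markers 7 rose, beside 19.1% of all genes. The part of these cells in the lower levels of the members was not tested.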

How the data were processed

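RNA sequencing was done by the authors with TruSeq Stranded mRNA libraries and 75-base single-end reads on a NextSeq 500. Per their methods and processing notes, reads were aligned to GRCm38 with STAR 2.7.3a and counted per gene over exons with featureCounts 2.0.0 (strand setting 2, GENCODE M12). The deposited values are raw read counts, 1 table of 49671 genes in 32 libraries, grouped from the labels. Names and exon lengths were taken from GENCODE M21.

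Genes with at least 5 counts in 3 or more libraries were tested with edgeR 4.0.16 in R 4.3.3 (TMM, quasi-likelihood test, Benjamini-Hochberg adjustment over all genes tested), within each time point and, for changes over time, in all 32 libraries. Members had to pass an adjusted p of 0.05 and an absolute log2 fold change of 0.5. The methods were tested on simulated counts with the same spread for every gene and no batch effect. Alternatives were the experiment batch or the replicate number as covariate, DESeq2 1.42.0, another filter, no filter and libraries left out in turn. Total counts of 24514090 to 73626029 leave least precision for members near 1 CPM.

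The members and lists were chosen with earlier results of these data known. Named genes are the members called between conditions, the 20 with the smallest p for miR-92a-1-5p at 5 d, the 10 with the largest change over time and any that went the other way, the highest member per role, and 4 genes of each other list. Reads of Pcna, Tyms and Nasp can be split with their pseudogenes, and Mcm7 exons overlap the miR-25 and miR-93 genes, so these counts are less certain. Whether the libraries came from separate animals is not stated, and p-values set a difference against the spread between these libraries. Promoter windows ran from 250 bases before to 50 after the start, and matches were counted on both strands.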

Additional observations from a re-analysis of the deposited data

Results flagged for a closer look

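A library was picked out where its distance from the nearest of the other 3 took up nearly all of its group's range. Of 224 groups of values 22 held such a library (9.82%). Chance picks out about 1 in 20 of independent groups. These groups come from the same 32 libraries and are not independent, so the share cannot be set against chance.

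At 6 h, miR-92a-1-5p replicate 4 was the highest of its group for 7 members, with 11.4 CPM of Clspn, 5.07 CPM of Gmnn, 14.98 CPM of Hells, 37.3 CPM of Mcm2, 31.7 CPM of Mcm5, 30.3 CPM of Pclaf and 34.7 CPM of Uhrf1. The other 3 libraries of that group held 17.7 to 19.5 CPM of Pclaf and 20.9 to 21.7 CPM of Uhrf1. Untreated replicate 2, of the same experiment batch, was the highest of its own group for Gmnn, at 6.41 CPM. The lowest of their groups at 6 h were miR-124-5p replicate 2 for Gmnn (2.14 CPM) and Mut.oligo replicate 3 for Mcm7 (45.2 CPM), and miR-124-5p replicate 3 was the highest for Ccne1 (6.91 CPM).

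At 5 d, miR-124-5p replicate 1 was the highest of its group for the summed members (623 CPM), Ccne1 (6.07 CPM), Gmnn (1.77 CPM), Mcm5 (11.6 CPM), Mcm6 (29.9 CPM) and Mcm7 (40.4 CPM). In the same batch, which held no untreated library, miR-92a-1-5p replicate 1 was the highest of its group for Mcm5 (8.13 CPM). Untreated replicate 3, alone in its batch, was the highest of its group for the summed members (635 CPM), and untreated replicate 2 for Rrm2 (29.9 CPM). With Mut.oligo replicate 4 was the lowest for Cdc6 (0.787 CPM) and replicate 1 the highest for Dscc1 (0.670 CPM).

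The effect of miR-92a-1-5p on Pclaf differed between 5 d and 6 h by -1.22 on the log2 scale in the test of that difference with the batch as a covariate (edgeR adjusted p = 0.0470). Without the batch the difference was -1.11 and missed the threshold.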

How the results depend on the processing

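The counts of called members, and of members lower in every shared batch, were recomputed under 314 combinations of a comparison and an alternative. Of these 303 kept to within 1.5 times the count reported, and many of them were counts of 0 that stayed at 0. With a batch term in the fit, the count for miR-92a-1-5p against untreated at 5 d was 5 in edgeR and 6 in DESeq2 in place of 0, and DESeq2 without a covariate gave 3. It was 1 and 2 for miR-124-5p, 1 and 2 for Mut.oligo, and for the difference between 5 d and 6 h with miR-92a-1-5p 1 and 2. DESeq2 with the batch gave 1 for miR-92a-1-5p against Mut.oligo. Leaving out 1 library gave 0 to 2 calls for miR-92a-1-5p, with Pclaf (-1.53) and Uhrf1 (-1.18) called without miR-92a-1-5p replicate 1. The share of all genes called in that fit is not given, so the count cannot be read as particular to the members. Why the counts moved was not tested.

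With the replicate number as a block the counts were 0 for each comparison between conditions and 33 over time in untreated cultures. The shares of all genes called with this block are not given. Same-numbered libraries had median correlations of -0.156 at 6 h and 0.234 at 5 d, libraries of the same experiment batch 0.556 and 0.451. Of the 24 same-numbered pairs of libraries from different groups, 2 shared an experiment batch at 6 h and 13 at 5 d, among them all 6 pairs of replicate 4. The lowest correlation of a same-numbered pair was -0.426 at 6 h and -0.454 at 5 d. The block changed no count of calls between conditions or over time.

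Of the named members, Rad51ap1 with miR-124-5p ran from -0.0449 to 0.0940 when 1 library was left out, below 0 without untreated replicate 1 or miR-124-5p replicate 1. With Mut.oligo it ran from -0.149 to 0.00573, above 0 without Mut.oligo replicate 1. Nasp with miR-92a-1-5p ran from -0.0507 to 0.00573, above 0 without untreated replicate 4 or miR-92a-1-5p replicate 3. Dscc1, under 1 CPM in all 16 libraries at 5 d, had the largest standard error of the members there with miR-92a-1-5p (0.297).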
